A study of Mus musculus with 123 samples.

Results

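Fabp1, the liver-type fatty acid binding protein gene, and Pon1, the paraoxonase 1 gene, were followed in the lungs of BALB/c mice, an inbred strain, in an allergic asthma model. They are 2 of 13053 genes measured. They were chosen by their measured values, as the genes with the lowest sensitized minus naive differences of all from 24 to 96 h after challenge. Fabp1 was read by 2 probe sets and Pon1 by 1, out of 25697 deposited probe sets. RNA of each mouse was hybridised to 1 array. The 62 sensitized mice had been sensitized to ovalbumin (OVA), an egg protein used as a model allergen, and the 61 naive mice had not. Both arms are described as challenged with OVA, but the titles of the naive samples carry "PBS", so what the naive mice received at challenge is not settled here. Lungs were taken at 0, 2, 6, 24, 48, 72, 96 and 168 h, in groups of 8 mice, except 7 naive mice at 2, 48 and 96 h and 6 sensitized mice at 24 h. The labels used here do not state age, sex or how and when the mice were sensitized, nor whether 0 h precedes the challenge.

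Fatty acid binding proteins are small cytosolic carriers that hold long-chain fatty acids and pass them between membranes, enzymes and nuclear receptors. Fabp1 is best known from liver and small intestine, where it binds fatty acids, bile acids and haem. Paraoxonases are lactonases; Pon1 is secreted by the liver, travels on high-density lipoprotein and hydrolyses lactones, oxidised lipids and organophosphates such as paraoxon. In the airway, club cells are secretory epithelial cells rich in enzymes that metabolise foreign compounds, and goblet cells make mucus.

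The start regions of both genes are shown because the genes were lowered in the same groups of mice. Both windows come from RefSeq on the GRCm38.p6 mouse assembly and run from 250 bases before to 50 after the gene start, on chromosome 6. They are written 5′ to 3′ on the strand of the gene, with motif matches in capitals: Fabp1 at chr6:71199629-71199928 on the plus strand and Pon1 at chr6:5193897-5194196 on the minus strand.
Fabp1: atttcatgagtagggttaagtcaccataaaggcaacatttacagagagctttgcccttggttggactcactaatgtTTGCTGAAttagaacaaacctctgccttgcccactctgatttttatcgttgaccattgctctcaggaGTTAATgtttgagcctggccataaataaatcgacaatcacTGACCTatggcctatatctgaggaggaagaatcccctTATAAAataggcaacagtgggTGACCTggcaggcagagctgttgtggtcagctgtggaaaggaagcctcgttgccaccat
Pon1: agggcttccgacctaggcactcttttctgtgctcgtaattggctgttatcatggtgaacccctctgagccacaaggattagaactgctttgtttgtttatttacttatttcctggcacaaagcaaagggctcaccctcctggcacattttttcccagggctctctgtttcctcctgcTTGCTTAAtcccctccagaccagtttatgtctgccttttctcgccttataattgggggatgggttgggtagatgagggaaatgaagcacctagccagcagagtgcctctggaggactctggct
Each motif was searched on both strands, and no matches overlapped each other. TTGCNNAA, a motif of C/EBP factors, was the motif found in both windows, at -174 in Fabp1 and -73 in Pon1, and 10.8% of 32851 RefSeq windows of this length hold it. The Fabp1 window also held GTTAAT, a part of the binding site of the liver factor HNF1, at -107, which 7.1% of windows hold. AGGTCA, the core repeat of the sites of nuclear receptors such as PPARα, was read on the opposite strand as TGACCT at -67 and -9 of Fabp1, and is in 16.3% of windows. TATAAA was found at -30 of Fabp1, and 13.6% of windows hold it. Only exact matches were searched. None was found in either window for the DR1 element, which is AGGTCA repeated after 1 spacer base (0.0396% of windows). None was found for CAAAGTCCA of HNF4 (0.475%) or for TGTTTAC of FOXA factors (3.65%). Nor was one found for the STAT6 palindrome (6.95%) or the glucocorticoid response element (0.414%). At -67 of Fabp1 the letters TGACCT run on as atggcct, which is 1 base away from an exact DR1 on the opposite strand. Such near matches were not counted. These are descriptions of the letters, and no binding was measured.

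Values are deposited log2 signals, so a difference of 1 is a change of the signal by a factor of 2. Array medians lay between 9.32 and 9.44, and no pair of arrays held identical values. On 10 arrays, 6 naive and 4 sensitized, genes of squamous epithelium or skeletal muscle stood far above the rest, and results were also computed without them. The RNA is from whole lung, where fewer cells of a type and less RNA per cell cannot be told apart. Since Fabp1 and Pon1 are classical liver genes, hepatocyte markers were read too: of 19 listed, 9 were measured. Group means of albumin (Alb) lay between 6.31 and 6.69 and of transthyretin (Ttr) between 6.98 and 7.20. The mean over the 9 hepatocyte genes lay between 7.68 and 7.83 in the naive groups and between 7.48 and 7.88 in the sensitized groups. Not all hepatocyte markers were low in lung: Serpina1b had group means of 10.6 to 11.3 and Cyp2e1 of 9.03 to 11.19. Of 14 intestinal markers 7 were measured: villin (Vil1) had group means of 6.63 to 6.93, Lgals4 of 9.52 to 10.07, Guca2a of 6.88 to 9.65 and the antimicrobial lectin Reg3g of 9.70 to 12.94. The mean over the intestinal list was 7.60 in naive and 8.47 in sensitized mice at 24 h. The median difference of its genes was only 0.08, with 3 of 7 genes called higher and 1 lower. The part of liver or gut genes in the Fabp1 and Pon1 differences was not tested.

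In naive mice both genes kept a steady signal. Fabp1 (probe set 1448764_a_at) had group means from 10.77 at 2 h to 11.15 at 6 h, a span of 0.37, and Pon1 from 11.70 at 168 h to 11.83 at 24 h, a span of 0.13. The standard deviation (SD) within naive groups ran from 0.089 to 0.45 for Fabp1 and from 0.14 to 0.39 for Pon1. In sensitized mice the means spanned 3.94 for Fabp1 and 2.24 for Pon1, with SDs of 0.30 to 1.39 and 0.48 to 1.06. Both genes were at their lowest at 24 h and at their highest at 2 h in this arm.

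At 24 h, Fabp1 in naive mice lay at 10.73, 11.12 and 11.34 (lowest, median, highest of 8). The 6 sensitized mice lay at 6.54, 6.94 and 7.42. Every sensitized mouse was thus far below every naive mouse, and the difference of the means was -4.11 ± 0.36 (SE of the model), a 17.3-fold lower signal. The sensitized Fabp1 mean of 6.97 lay beside the group means of the liver gene Ttr, 6.98 to 7.20, and under the low-value filter of 7. How far the low end of the scale limits this fold and the spread of these mice was not tested. Pon1 lay at 11.63, 11.82 and 12.03 in naive mice. In sensitized mice it lay at 8.59, 9.01 and 9.78. The difference for Pon1 was -2.72 ± 0.29, or 6.60-fold lower. These contrasts chose the genes, so they are given as descriptions with no test.

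The lower signal persisted to 96 h with a wide spread between sensitized mice. For Fabp1 the lowest, median and highest sensitized values were 7.02, 8.26 and 9.34 at 48 h. They were 6.79, 8.46 and 10.80 at 72 h, and 6.90, 8.30 and 10.04 at 96 h. Naive mice ran from 10.44 to 11.55, from 10.79 to 11.34 and from 10.79 to 11.49 at those times, with medians of 10.90, 11.08 and 11.11. One sensitized mouse at 72 h, replicate 5, reached the naive range of Fabp1, and no other mouse did so between 24 and 96 h. Pon1 lay at 8.76, 9.36 and 10.11 in sensitized mice at 48 h. It lay at 8.57, 9.21 and 10.84 at 72 h and at 8.66, 10.02 and 10.45 at 96 h. The naive mice of these times had Pon1 medians of 11.88, 11.74 and 11.80 and none was under 11.50, so the arms did not overlap. Differences were -2.69 ± 0.35, -2.55 ± 0.34 and -2.75 ± 0.35 for Fabp1 at 48, 72 and 96 h. For Pon1 they were -2.39 ± 0.27, -2.48 ± 0.27 and -2.07 ± 0.27. For orientation, the arms did not overlap, with the sensitized mice lower, for 9.11% of all genes at 24 h, 4.04% at 48 h, 8.17% at 72 h and 5.06% at 96 h.

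**Figure D1:**
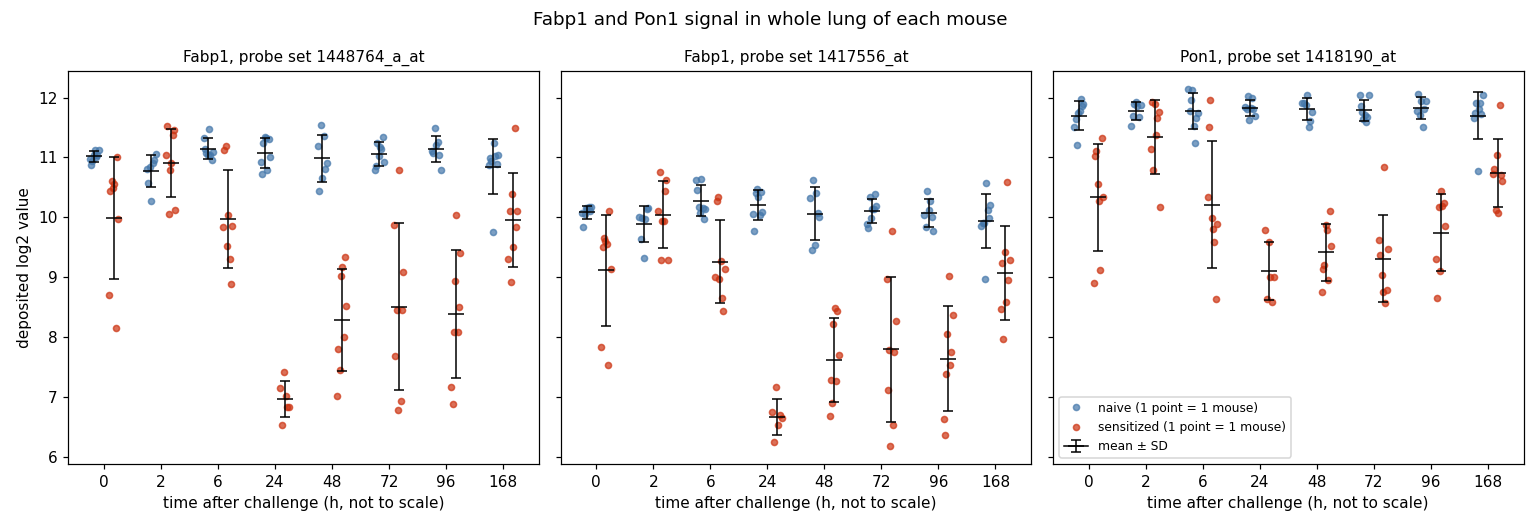
Deposited log2 value of each mouse (y axis) by time after challenge in h (x axis, not to scale) for both Fabp1 probe sets and the Pon1 probe set; blue points are naive and red points sensitized mice, and black bars are the mean ± SD. The 6 sensitized mice at 24 h lie at 6.54 to 7.42 for Fabp1 probe set 1448764_a_at, and the naive means stay between 10.77 and 11.15.

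By the values that chose them, Fabp1 was the lowest and Pon1 the next lowest of 13053 genes at 24, 48, 72 and 96 h. The genes just outside were Vstm2a at -2.39 ± 0.29 at 24 h, the adipokine gene Adipoq at -1.71 ± 0.81 at 48 h, and Krtap17-1 at -1.95 ± 0.27 at 72 h and -1.72 ± 0.28 at 96 h. The other Fabp1 probe set, 1417556_at, gave -3.52 ± 0.33, -2.44 ± 0.31, -2.31 ± 0.30 and -2.43 ± 0.31 at the 4 times. It read lower than 1448764_a_at on every array, by 0.14 to 1.23 with a median of 0.88, and had r = 0.9951 with it across the arrays. At 72 h this probe set showed no overlap between the arms.

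The times that played no part in the choice could be tested. At 0 h both genes were already lower in sensitized mice. Fabp1 lay at 10.87, 11.02 and 11.13 in naive mice (lowest, median, highest). In sensitized mice it lay at 8.16, 10.46 and 11.02, and 7 of 8 were below every naive mouse. The difference was -1.02 ± 0.34 (limma, adjusted p = 0.0171), where 12.3% of all genes were called lower and 26.5% in either direction. It rested in part on replicates 1 and 6, with 8.70 and 8.16: without replicate 1 it was -0.84 (adjusted p = 0.0773 in limma), and without replicate 6 it was -0.76 (adjusted p = 0.103). Pon1 at 0 h lay at 11.21, 11.76 and 11.97 in naive mice. In sensitized mice it lay at 8.92, 10.45 and 11.33, and 7 of 8 were below every naive mouse. Its difference was -1.36 ± 0.27 (limma, adjusted p = 6.593e-05) and it was called without any one of the mice. The other Fabp1 probe set gave -0.97 at 0 h (limma over all probe sets, adjusted p = 0.0134), -1.02 at 6 h (adjusted p = 0.00277) and -0.87 at 168 h (adjusted p = 0.0781).

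At 2 h neither gene differed past the threshold. Fabp1 lay at 10.28, 10.83 and 11.06 in naive mice. It lay at 10.06, 10.97 and 11.52 in sensitized mice, and the arms overlapped widely. The difference was 0.14 ± 0.35 (limma, adjusted p = 0.896). Pon1 lay at 11.53, 11.86 and 11.93 against 10.18, 11.52 and 11.92, a difference of -0.44 ± 0.27 (limma, adjusted p = 0.431). Of all genes, 3.76% were called at this time in either direction.

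At 6 h both genes were lower again. Fabp1 lay at 10.95, 11.08 and 11.47 in naive mice. In sensitized mice it lay at 8.90, 9.85 and 11.19, and 6 of 8 were below every naive mouse. The difference was -1.17 ± 0.34, a 2.26-fold lower signal (limma, adjusted p = 0.00178). Pon1 lay at 11.24, 11.76 and 12.15 in naive and 8.64, 9.94 and 11.95 in sensitized mice, again with 6 of 8 below every naive mouse. The difference was -1.56 ± 0.27, 2.94-fold lower (limma, adjusted p = 3.373e-07). Calls were common at this time, since 33.2% of all genes were called lower and 24.6% higher. Sensitized replicates 2 and 3 stood at naive levels for both genes, with 11.12 and 11.19 for Fabp1 and 11.51 and 11.95 for Pon1.

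At 168 h Pon1 was lower in sensitized mice and Fabp1 did not pass the threshold. Pon1 lay at 10.78, 11.78 and 12.05 in naive mice. In sensitized mice it lay at 10.07, 10.72 and 11.88, and 5 of 8 were below every naive mouse. The difference was -0.95 ± 0.27 (limma, adjusted p = 0.0185), where 1.41% of all genes were called lower and 4.81% in either direction. Without sensitized replicate 3 it was -0.86 (adjusted p = 0.0560). Fabp1 lay at 9.76, 10.96 and 11.24 against 8.93, 9.98 and 11.49, a difference of -0.88 ± 0.34 (limma, adjusted p = 0.109). Without sensitized replicate 6, the mouse at 11.49, it was -1.10 (adjusted p = 0.0394). In the order of all differences at 168 h, Pon1 was the fourth and Fabp1 the eighth from the lowest.

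Between 0 and 2 h the signal was higher at the later time within the sensitized arm. The 2 h minus 0 h difference in sensitized mice was 0.91 ± 0.34 for Fabp1 (limma, adjusted p = 0.0282) and 1.01 ± 0.27 for Pon1 (limma, adjusted p = 0.00206), where 32.2% of all genes were called in either direction. Without the 10 arrays with neighbouring tissue the Fabp1 value was 0.85 (adjusted p = 0.0565). In naive mice the same differences were -0.25 ± 0.35 and 0.08 ± 0.27 and were not called, where 2.91% of all genes were. The change of the arm difference from 0 to 2 h was 1.16 ± 0.48 for Fabp1 (limma, adjusted p = 0.130) and 0.92 ± 0.38 for Pon1 (adjusted p = 0.125), so a difference between the arms in this step was not called, where 6.69% of all genes were. No change from 0 h to 6 or 168 h was called for either gene in either arm, nor was a change of the arm difference from 0 h to 6 or 168 h. In sensitized mice the 6 h minus 0 h difference was -0.02 ± 0.34 for Fabp1 and -0.12 ± 0.27 for Pon1, where 53.7% of all genes were called, and the 168 h minus 0 h difference was -0.03 ± 0.34 and 0.41 ± 0.27, where 6.13% were. In naive mice 9.2% of all genes were called at 6 h and 0.391% at 168 h against 0 h, and for the change of the arm difference 24.6% and 1.94%. All of these comparisons share the mice of 0 h.

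In the order of the sensitized means, Fabp1 ran from 24 h (6.97) through 48 h (8.29), 96 h (8.39), 72 h (8.51), 168 h (9.96), 6 h (9.97) and 0 h (9.995) to 2 h (10.91). Pon1 ran from 24 h (9.11) through 72 h (9.31), 48 h (9.42), 96 h (9.75), 6 h (10.22), 0 h (10.34) and 168 h (10.75) to 2 h (11.34). The ranges of neighbours in either order overlapped.

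Mice of the same sensitized group that were low for Fabp1 were low for Pon1. To show this, the mean of its own group was subtracted from each mouse, which removes the differences that chose the genes. Over 62 sensitized mice the deviations had Pearson r = 0.8137 and Spearman rho = 0.7989 (permutation within groups, two-sided, p = 1e-05 for each, the smallest that 100000 resamples can give). Without the 2 mice farthest on the Fabp1 axis, r was 0.7800. The correlation was positive in 8 of 8 sensitized groups, from 0.60 at 96 h to 0.96 at 6 h. At 6 h the highest and the lowest mouse of both genes, replicates 3 and 7, were on arrays with neighbouring tissue. The correlation over sensitized mice alone was not computed without such arrays. Over all 113 mice of both arms without them, r was 0.7529 and rho 0.5447 (permutation within groups, p = 1e-05 for each). Over 61 naive mice r was 0.2082 (permutation p = 0.173) and rho -0.0447 (p = 0.737), and r was -0.0991 without the 2 farthest mice. It was positive in 3 of 8 naive groups. The naive spread was small for both genes, and whether the correlation differs between the arms was not tested.

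**Figure D2:**
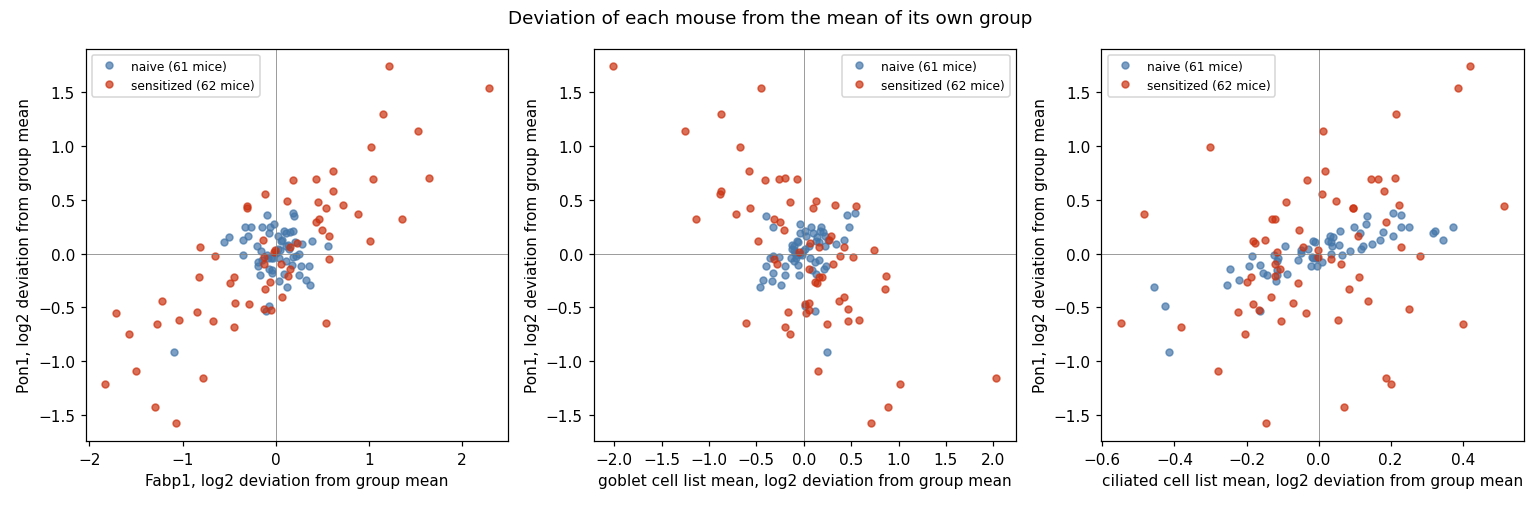
Log2 deviation of Pon1 from the group mean (y axis) against that of Fabp1, the goblet cell list mean and the ciliated cell list mean (x axes, log2), with 1 point per mouse, blue for 61 naive and red for 62 sensitized mice. Among sensitized mice the points rise with Fabp1 (r = 0.8137) and fall with the goblet cell list (r = -0.69), and among naive mice they rise with the ciliated cell list (r = 0.83).

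Lists of cell type markers moved with the same groups. The mean over 14 measured goblet cell genes had group means of 7.40 to 7.60 in naive mice. In sensitized mice it was 10.61 at 0 h, 8.57 at 2 h, 10.11 at 6 h, 10.66 to 11.18 from 24 to 96 h and 9.58 at 168 h, and all 14 genes were called higher at 24 h. Of 14 alveolar type 1 genes 13 were called lower at 24 h, of 13 endothelial genes 10 were, and of 12 T cell genes 10 were called higher. Of 15 club cell genes 10 were called lower and 3 higher at 24 h, and of 9 hepatocyte genes 1 was lower and 1 higher. Over all genes 24.9% were called lower and 22.8% higher at this time. The type 1 list mean was 13.05 in naive and 12.82 in sensitized mice at 24 h, the endothelial mean 12.47 and 12.23, the club cell mean 12.48 and 12.39 and the T cell mean 8.74 and 9.46. The part of these cell types in the Fabp1 and Pon1 differences was not tested.

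Within groups, deviations of both genes in sensitized mice followed most of the marker lists, so no relation below is particular to its list. Pon1 had r = -0.69 with the goblet cell list (rho = -0.59), and Fabp1 r = -0.59 (rho = -0.64), each with an adjusted permutation p of 3.09e-05 or 3.78e-05 over the 34 relations of both genes with 17 lists. Without the 2 farthest mice these were -0.62 and -0.59. At 0 h the goblet cell means of replicates 1 and 6, the mice lowest for Fabp1, were 11.50 and 11.62, the highest of that group. At 6 h replicate 3, the highest for both genes and on an array with neighbouring tissue, had the lowest goblet cell mean, 8.09. At 168 h replicate 6, the highest for both genes, again had the lowest, 8.33. Positive relations were found with the endothelial list (r = 0.76 for Pon1 and 0.67 for Fabp1), the alveolar type 1 list (0.70 and 0.71) and the club cell list (0.70 and 0.55). Negative ones were found with the T cell list (r = -0.74 and -0.60) and the eosinophil list (-0.59 and -0.44). All of these passed the threshold after adjustment with both r and rho. The hepatocyte list, which holds genes of the organ best known for both members, had r = 0.35 with Fabp1 (adjusted permutation p = 0.0238) and 0.26 with Pon1 (adjusted permutation p = 0.0464), with rho of 0.43 and 0.33. The intestinal list went the other way, with r = -0.45 for Fabp1 (adjusted permutation p = 0.000291) and -0.40 for Pon1 (adjusted permutation p = 0.00245). Genes of these 2 lists varied unevenly: group means ran from 9.70 to 12.94 for Reg3g but from 6.63 to 6.93 for Vil1. For hepatocyte genes they ran from 9.03 to 11.19 for Cyp2e1 but from 6.31 to 6.69 for Alb. Which genes carry the relations was not tested. The alveolar macrophage list was negative too, with r = -0.40 for Fabp1 and -0.66 for Pon1. For Fabp1 and Pon1 in turn, r was 0.50 and 0.52 with the alveolar type 2 list and 0.39 and 0.47 with the fibroblast list. It was 0.31 and 0.42 with the adipocyte list and -0.31 and -0.32 with the B cell list, and all of these r passed the threshold. By r, the neutrophil and squamous lists passed for neither gene, and the ciliated cell and skeletal muscle lists for Pon1 only.

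In naive mice Pon1 followed lists of airway epithelial cells. It had r = 0.83 and rho = 0.87 with the ciliated cell list and r = 0.64 and rho = 0.63 with the club cell list (adjusted permutation p = 0.00017 for each). Without the 2 farthest mice these r were 0.81 and 0.57. Fabp1 had r = 0.02 with the ciliated cell list and -0.02 with the club cell list, and none of its 17 relations passed the threshold in naive mice. Pon1 also followed the adipocyte list there (r = 0.42, adjusted permutation p = 0.0240; rho = 0.35, adjusted p = 0.0656). The differences between Fabp1 and Pon1 in these correlations were not tested.

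**Figure D3:**
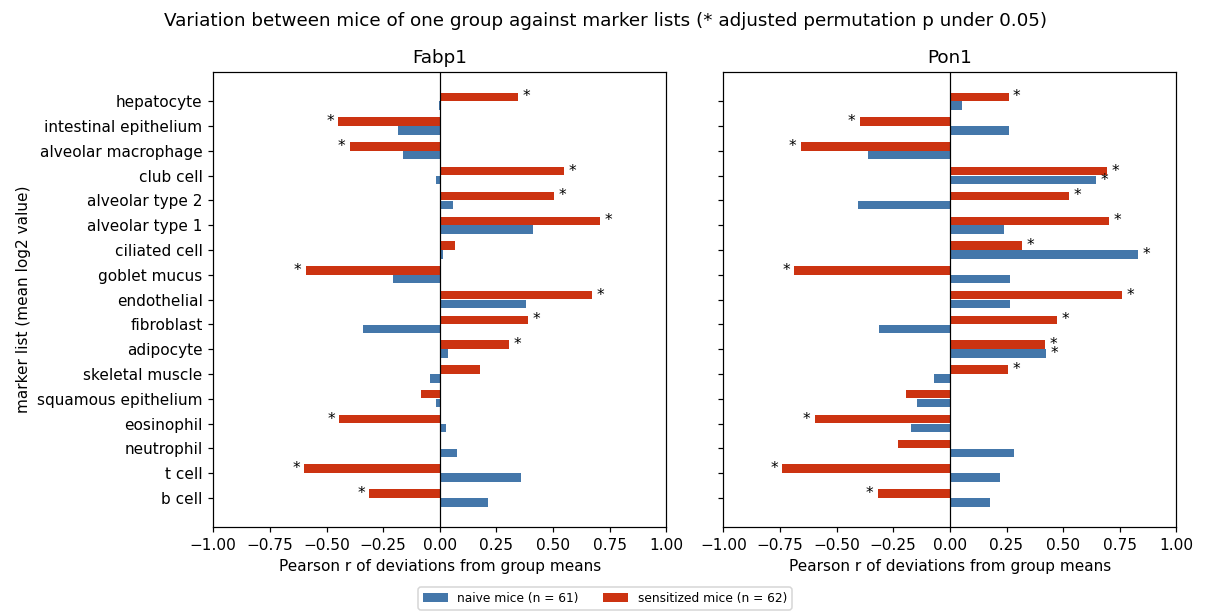
Pearson r (x axis) between deviations from group means of Fabp1 (left) or Pon1 (right) and the mean of each of 17 marker lists (y axis), with blue bars for 61 naive and red bars for 62 sensitized mice; an asterisk marks an adjusted permutation p under 0.05. In naive mice the ciliated cell list stands at 0.83 for Pon1 and at 0.02 for Fabp1.

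The genes whose pattern was most like that of each member were ranked by Pearson r over all 13053 genes, as a description. Over the 16 group means, Fabp1 was closest to Lyz1 (0.9627), a lysozyme of alveolar type 2 cells, then Pon1 (0.9546), Vstm2a (0.9505), the cytokine gene Il18 (0.9496) and the peroxisomal thiolase Acaa1b (0.9392). Pon1 was closest to the drug efflux transporter Abcb1a (0.9764), Upk1a (0.9738), Ltbp4 (0.9710), the collagen gene Col12a1 (0.9705) and Vstm2a (0.9696), and Fabp1 ranked 24. Over the deviations of all mice from their group means, Pon1 ranked first for Fabp1 (0.7589), before Selenbp1 (0.7374), Il18 (0.7330), Vstm2a (0.7277) and the cytochrome P450 Cyp4b1 (0.7144). For Pon1 the first were Selenbp1 (0.8995), the club cell cytochrome Cyp2f2 (0.8723), the transcription factor Foxo4 (0.8544), the club cell secretoglobin Scgb3a2 (0.8501) and the neurotrophic receptor Gfra1 (0.8329), and Fabp1 ranked 51. The points share arrays, so these r carry no test.

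Pon2 and Pon3, the other paraoxonases, were called higher in sensitized mice from 24 to 96 h, where Pon1 was low. Of all genes, 22.8% were called higher at 24 h, 22.2% at 72 h and 21.2% at 96 h, and 2216 of 13053 at 48 h. Pon3, which also encodes a lactonase carried on lipoprotein, was higher in sensitized mice at 24 h by 0.37 ± 0.05 (limma, adjusted p = 9.122e-09), with means of 11.31 ± 0.09 (SD, n = 8) and 11.68 ± 0.08 (SD, n = 6). At 72 h Pon3 was higher by 0.55 ± 0.05 (limma, adjusted p = 3.881e-17), and it was called higher at 0, 48, 96 and 168 h too. Pon2, the paraoxonase that stays inside cells, was called higher at 24, 48, 72 and 96 h, by 0.13 to 0.28. At 6 h Pon2 was lower by 0.23 ± 0.05 (limma, adjusted p = 1.116e-05) and Pon3 stood at -0.01 ± 0.05. The Pon2 call at 0 h, 0.12 (adjusted p = 0.0456), was lost without the arrays with neighbouring tissue (0.11, adjusted p = 0.116).

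Of 15 listed genes of the fatty acid binding and related carrier family, 9 were measured, Fabp1 included. Fabp12 was called lower at 6, 24, 48, 72 and 96 h, with the lowest difference at 6 h (-0.89 ± 0.14). Rbp7, a retinol carrier, was called lower at 0, 6, 24, 48 and 72 h, with -1.69 ± 0.23 at 6 h and -0.81 ± 0.25 at 24 h. Fabp4, the adipocyte and macrophage form, was called lower at 0 h (-1.07 ± 0.38) and at no other time. Fabp4 is also on the adipocyte list, of whose 9 measured genes 6 were called lower at 0 h. It is on the alveolar macrophage list too, where 7 of 12 were called higher and 1 lower. Fabp3, the heart form, had differences between -0.02 and 0.11, with 1 call at 6 h that was lost without the arrays with neighbouring tissue (0.13, adjusted p = 0.0520). Fabp7, the brain form, was called lower at 6 h (-0.73 ± 0.31). The retinoic acid carriers Crabp1 and Crabp2 were each called higher at 1 time, at 96 h (0.62 ± 0.18) and at 6 h (0.65 ± 0.28). Rbp2, the intestinal retinol carrier, was called lower at 0 h (-1.23 ± 0.47). The naive mice of that time had an SD of 2.22, and without the arrays with neighbouring tissue Rbp2 stood at -0.04 (adjusted p = 0.692), and it was then called higher at 72 h (0.19) and 96 h (0.29). For comparison, 12.3% of all genes were called lower at 0 h, 33.2% at 6 h, 24.9% at 24 h and 26.3% at 72 h. At 6 h 24.6% were called higher. In either direction, 35.1% of all genes were called at 48 h and 42.0% at 96 h.

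**Figure D4:**
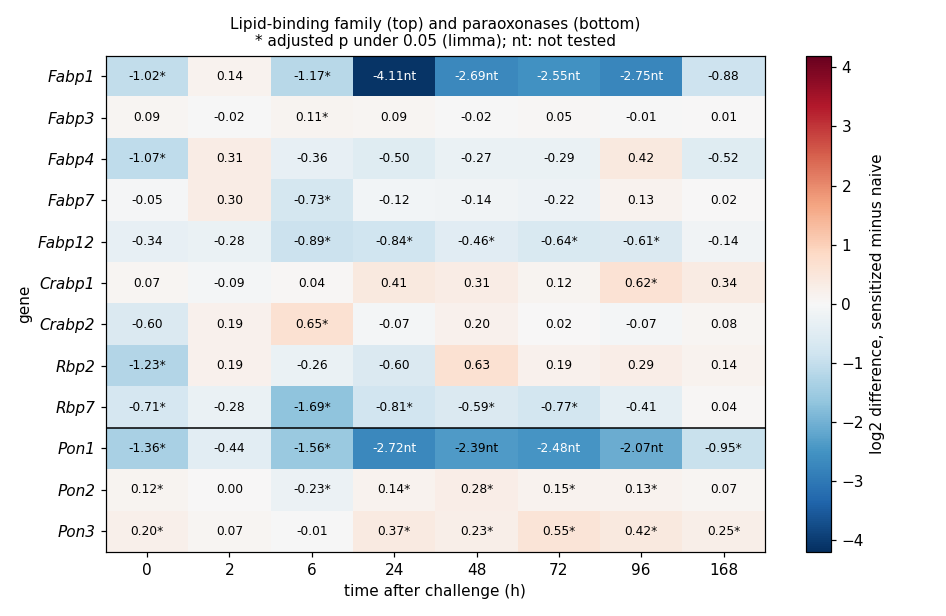
Log2 difference, sensitized minus naive (colour and printed value), by time after challenge in h (x axis) for 9 carrier family genes above the line and 3 paraoxonases below it (y axis). An asterisk marks an adjusted p under 0.05 in limma and nt a contrast that chose the genes and was not tested; Pon2 and Pon3 are at or above 0 at every time except 6 h.

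Lipid-handling genes as a whole moved both ways. Of 132 measured genes on 8 lists of lipid handling, without Fabp1 and Pon1, 21 were called higher and 36 lower at 24 h. That is 15.9% and 27.3%, beside 22.8% and 24.9% of all genes tested. At 72 h 21 were higher and 33 lower, 15.9% and 25.0% beside 22.2% and 26.3% of all genes. The median differences at 72 h were -0.0037 for the lipid genes and -0.02 for all genes. At 6 h 63 of the 132 were called lower, or 47.7% beside 33.2% of all genes, and 21 were called higher. At 96 h the balance was the other way, with 28 called higher and 17 lower, or 21.2% and 12.9% beside 21.2% and 20.8% of all genes. At 0 h 14 were higher and 23 lower (10.6% and 17.4% beside 14.2% and 12.3%), and at 48 h 21 and 24 (15.9% and 18.2%, beside 2216 and 2363 of all 13053 genes). At 2 h 4 were higher and 1 lower, or 3.03% and 0.758% beside 1.84% and 1.92% of all genes. At 168 h the counts were again 4 and 1, beside 3.4% and 1.41% of all genes.

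Of all genes, 12.3% were called lower at 0 h, and 26.3% lower and 22.2% higher at 72 h. By role, at 72 h, 12 of 30 synthesis and storage genes were called lower and 2 higher. Cidec, a lipid droplet protein, stood at -1.22 ± 0.33, Dgat2, which makes triglyceride, at -0.82 ± 0.25, and malic enzyme Me1 at 0.66 ± 0.09. Cidec is also on the adipocyte list, of whose 9 measured genes 2 were called lower at this time and 6 at 0 h. Of 12 genes of fatty acid uptake and activation, 6 were called higher and none lower, among them Slc27a2 (0.52 ± 0.17) and Acsl4 (0.29 ± 0.06). Of 21 genes of lipoproteins, 2 were higher and 7 lower, with apolipoprotein B (Apob) at 1.39 ± 0.19, Apoc2 at 0.91 ± 0.17 and the receptor Vldlr at -0.74 ± 0.14. Of 27 fatty acid oxidation genes and PPARα targets, 4 were higher and 7 lower, with Pdk4, which restrains pyruvate oxidation, at -0.92 ± 0.19 and Acaa1b at -0.75 ± 0.16. Among 19 regulators, 4 were higher and 3 lower: Foxa3, which is also on the goblet cell list, stood at 1.76 ± 0.18, Ppargc1b at 0.85 ± 0.12 and Ppara, the receptor for which Fabp1 carries ligands, at -0.49 ± 0.12. Of 13 esterases, Ces1g (-1.27 ± 0.20) and Ces2e (-0.38 ± 0.15) were lower and Pla2g7, an enzyme carried on lipoprotein, was higher (0.51 ± 0.18).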

How the data were processed

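Whole lung RNA of 61 naive and 62 sensitized mice was amplified with a 3′ in vitro transcription kit and hybridised to Affymetrix arrays, per the labels' protocols. The deposited log2 values were made with RMA by the authors, per the submitters' processing notes, and were used unchanged. RMA as usually run equalises arrays by quantiles and compresses low signals, so folds are folds of signal. How the deposited probe sets were selected is not stated. Arrays give no counting depth, and their number limits the precision.

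Of 25697 probe sets, 10 were controls, 22478 carried a single gene symbol and 259 carried several, and 2950 had no listed gene. For 5672 genes with several probe sets, the one with the highest mean was used, leaving 13053 genes. All arrays entered a single limma 3.58.1 model (lmFit and eBayes in R 4.3.3) that estimates a mean for each group and leaves 107 residual degrees of freedom. Benjamini-Hochberg adjustment was over all genes within a contrast, with a threshold of 0.05. The spread is shared by all groups, so the SE understates that of the more variable sensitized groups. It overstates that of groups with a small spread, such as the naive groups and, for Fabp1, both arms at 24 h (SDs of 0.25 and 0.30). Changes between naive groups that were not called rest on this wider SE. The fit was tested on simulated data. Contrasts at 24, 48, 72 and 96 h chose the genes and were not tested. Deviations from group means were correlated with 100000 permutations within groups (Python 3.11.15, numpy 2.4.6, pandas 2.3.3, scipy 1.17.1; figures with matplotlib 3.10.9). Arrays with neighbouring tissue had a squamous epithelium list mean of 9 or more, or a skeletal muscle mean over 3 scaled median absolute deviations above the median.

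The members and all gene lists were chosen with earlier results of these data known. Named genes are both members, their measured relatives, up to 4 called genes per lipid list with the largest difference at 72 h, the neighbours in the order of differences, the 5 most alike by each measure, and markers. Replicates are separate animals by their numbers in the labels, and replicate numbers follow deposition order. Alternatives were another prior, array weights, other probe set rules, a low-value filter at 7, median scaling, the 2 groups alone, and leaving out arrays or single mice.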

Additional observations from a re-analysis of the deposited data

Results flagged for a closer look

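In 5 of 48 groups of values (3 probe sets in 16 groups) the highest or lowest mouse lay apart from the others beyond Dixon's 95% critical value, and chance flags about 1 in 20 groups. Replicate 4 of the naive mice at 168 h was low for all 3 probe sets: it stood at 9.76 for Fabp1 probe set 1448764_a_at, where the next mouse was at 10.88, at 8.97 for Fabp1 probe set 1417556_at (next 9.87) and at 10.78 for Pon1 (next 11.66). This mouse also stood apart on many of the 17 marker lists: it was the lowest of its group on 8, among them alveolar type 1 (12.69), endothelial (12.02) and club cell (12.05), and the highest on 4, among them alveolar macrophage (10.74) and fibroblast (12.59). Replicate 2 of the naive mice at 0 h stood at 9.84 for Fabp1 probe set 1417556_at, with the next mouse at 10.05. Replicate 5 of the sensitized mice at 72 h was high for Pon1, at 10.84 with the next mouse at 9.63.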

How the results depend on the processing

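No reported value of Fabp1 or Pon1 that was called changed sign under the alternatives run. For 6 changes over time or of the arm difference whose reported values were not called, the sign differed between settings, as for the Fabp1 change of the arm difference from 0 to 168 h (0.14, down to -0.38). Of these 6, 1 was called in some setting: the Fabp1 sensitized 6 h minus 0 h difference ran from -0.67, called with array weights, to 0.06. Array weights made 6 uncalled values of the members pass the threshold, that one included. For Fabp1 these were the difference at 168 h (-1.05), the change of the arm difference from 0 to 2 h (1.03) and the sensitized 6 h minus 0 h difference (-0.67). For Pon1 they were the change of the arm difference from 0 to 2 h (0.98) and to 6 h (-0.72) and the sensitized 6 h minus 0 h difference (-0.78). The Fabp1 difference of 2 h from 0 h in sensitized mice fell to 0.85 without the arrays with neighbouring tissue and no longer passed. Leaving out 1 mouse at a time gave -1.17 to -0.76 for Fabp1 at 0 h, -1.10 to -0.73 for Fabp1 at 168 h and -1.11 to -0.85 for Pon1 at 168 h. With array weights, the lipid list genes called at 2 h were 12 higher and 6 lower, at 48 h 35 higher, at 96 h 26 lower, and at 168 h 11 higher and 6 lower. Lipid genes called lower at 2 h were 2 without neighbouring tissue. Those called lower at 168 h were 2 with the mean over probe sets, 0 with all probe sets, 2 without neighbouring tissue and 0 with the 2 groups alone. Genes called at 2 h rose from 491 to 1379 with array weights, and at 168 h from 628 to 1570, against 362 with the 2 groups alone; testing all probe sets raised the arm counts at every time but 2 h by over 1.5 times, to between 1045 at 168 h and 14022 at 6 h, with more features tested. Between 0 and 2 h, array weights called 2715 genes in naive mice against 380, and the mean over probe sets 194. They called 3648 against 1201 between 0 and 6 h and 211 against 51 between 0 and 168 h in naive mice (78 without neighbouring tissue), and 1258 against 800 between 0 and 168 h in sensitized mice. For changes of the arm difference from 0 h they called 2825 against 873 at 2 h, 6930 against 3210 at 6 h and 453 against 253 at 168 h (519 without neighbouring tissue). The cause of these shifts was not tested. The correlation of Fabp1 with Pon1 deviations over all mice was 0.7589, and 0.7529 without neighbouring tissue. No paired analysis was possible because the labels give no replicate numbers shared between groups.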
